A study of Saccharomyces cerevisiae with 8 samples.

Results

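The genes described here are 31 cytosolic chaperone and heat shock genes of budding yeast, Saccharomyces cerevisiae, taken from a list of gene symbols and found through the platform annotation of the array. A probe set of its own measured 29 of them. The near-identical pair SSB1 and SSB2 was read only through 1 probe set they share, so the list gives 30 measured units among the 5656 genes with a probe set. They comprise 10 genes of the Hsp70 system, 9 of the Hsp90 system, 4 of the small heat shock protein and disaggregase group, 4 ribosome-bound chaperone genes (3 units) and 4 others.

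The study compared 2 groups of 4 arrays from haploid strains of W303a descent. The series design speaks of 4 isogenic strains per group, while the sample titles number 4 biological replicates of a strain. In every strain, per the labels, the eIF5A genes hyp2 and anb1 were disrupted and human EIF5A1, a translation factor, came from a plasmid. It was the wild-type protein in the group labelled WT, whose growth is described as normal, and the V81G point mutant in the other, described as temperature-sensitive. All strains grew at 25 °C, which the labels call permissive, to early log phase, with no heat shock, and 6 µg of total RNA from each was hybridised to 1 Affymetrix array.

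Chaperones bind proteins that are not yet folded or have lost their fold. Hsp70 holds exposed stretches and releases them under the control of J-proteins and nucleotide exchange factors, and Hsp90 works later, on nearly folded clients, with a set of cochaperones. Small heat shock proteins keep misfolded proteins in loose assemblies that Hsp104 and Hsp70 take apart, while ribosome-bound Hsp70s meet the chain as it is made. In yeast, many of these genes are driven by the transcription factor Hsf1, and several also by Msn2 and Msn4, which respond to nutrient and general stress signals.

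Values are log2 intensities, whose median over all probe sets was 10.17 and whose highest value was 15.43. Differences are V81G minus WT on that log2 scale. A difference was called, and is written as risen or fallen, when limma's adjusted p over all 9275 probe sets was under 0.05. Run sheets put replicates 1 and 2 of both groups on hybridization day 1 and replicates 3 and 4 on day 2. On day 1 the V81G arrays ran on fluidics station 2 and the WT arrays on station 1. On day 2 both V81G arrays and WT 3 ran on station 1, and WT 4 on station 2. Within the V81G group, day and station therefore cannot be told apart, and no source used here says whether cultures or RNA were also made by day. On day 1, group and station cannot be told apart either, so every day 1 difference is also a difference between stations. Arrays of the V81G group correlated at r = 0.983 to 0.991 across probe sets within a day and at 0.953 to 0.957 between days. For WT the ranges were 0.978 to 0.984 and 0.954 to 0.981. HYP2, described as disrupted, read 15.42 ± 0.01 (SD, n = 4) in the arrays labelled WT and 12.02 ± 0.23 (n = 4) in those labelled V81G, and ANB1, also described as disrupted, read 14.04 ± 0.13 and 14.18 ± 0.20. Both go against that description, so groups are named by their labels. Genes specific to a mating type did not settle the type. Means over 8 arrays ran from 8.68 (ASG7) to 11.55 (MFA2) for 6 a-specific genes. For 4 alpha-specific genes they ran from 8.98 (MF(ALPHA)2) to 14.16 (MF(ALPHA)1). Among all probe sets, ASG7, STE2 and BAR1 stood at the 19th percentile, STE6 at the 31st, MFA1 at the 56th and MFA2 at the 78th. MF(ALPHA)2 stood at the 24th, STE3 at the 74th, SAG1 at the 87th and MF(ALPHA)1 at the 97th. Levels of different probe sets, however, cannot be ranked against each other. STE2, STE6 and SAG1 rose in V81G, by 1.14, 0.61 and 1.77, and the other mating-type genes were not called.

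Over both days, SSA3 rose and SBA1 fell in the arrays labelled V81G, and the other 28 units were not called. SSA3 encodes a stress-inducible cytosolic Hsp70, and SBA1 the yeast p23, a cochaperone that binds the closed form of Hsp90. In all, 1 of 30 units was higher and 1 lower, where 8.96% and 8.59% of all probe sets were called in those directions. With 1 probe set per gene, as the units have, 9.21% of the 5656 genes rose and 12.3% fell. The share of called units thus lay below either background. At an unadjusted p under 0.05 there were 7 units. No share of all probe sets at that limit is given here, so this count has no background. The median difference of the 30 units was -0.09, with 9 positive and 21 negative, and 15 and 15 after quantile normalization. In the same fit 58.8% of the 5656 genes were negative, with a median of -0.08. After quantile normalization 3319 of them were.

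SSA3 (YBL075C) read 11.60, 11.78, 11.58 and 11.64 in V81G replicates 1 to 4 and 10.71, 10.45, 10.71 and 10.79 in WT replicates 1 to 4. Every V81G array was above every WT array, on both days. The difference was 0.98 ± 0.12 (SE), a 1.98-fold rise, with a limma adjusted p of 6.4e-04.

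SBA1 (YKL117W) read 12.46, 12.32, 12.26 and 12.18 in the V81G arrays and 13.22, 12.97, 13.30 and 13.49 in the WT arrays. Every V81G array was below every WT array. The difference was -0.94 ± 0.14, a 1.92-fold fall, with a limma adjusted p of 0.0017.

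Besides these genes, only HSC82 and CPR1 had groups that did not overlap, both lower in V81G, which makes 4 of 30 units or 13.3%, against 22.7% of all probe sets. SSA3, SSA4, FES1 and BTN2 were higher in V81G in all 4 replicate pairs. HSC82, SBA1, ZUO1 and CPR1 were lower in all 4, and 22 units had mixed signs. The matching share of all probe sets is not given here, and the labels state no pairing. With the replicate number as a block, 4 units were called. SSA4 (0.60, limma adjusted p = 0.0268) and FES1 (0.66, adjusted p = 0.0294) joined SSA3 and SBA1. With the hybridization day as a term there were 6, the additional ones being BTN2 (0.45, adjusted p = 0.0302) and HSP26 (-0.998, adjusted p = 0.0361). The background rose as well. The block fit called 9.95% of genes higher and 13.7% lower, and the fit with the day term 12.5% and 18.3%.

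**Figure D1:**
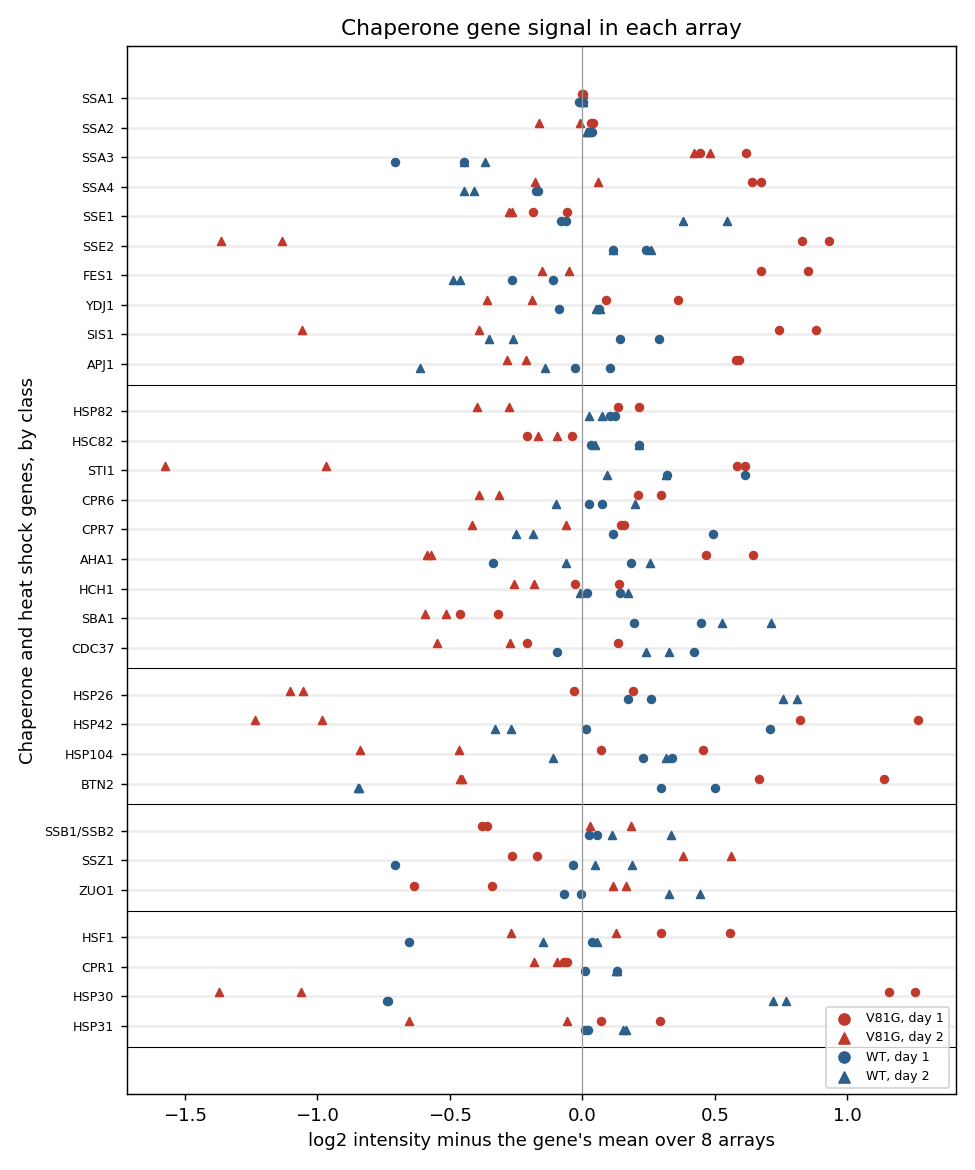
Log2 intensity of each of the 30 units in every array, as the deviation from that gene's mean over the 8 arrays. Red marks V81G, blue WT, circles day 1 and triangles day 2, and horizontal lines part the classes. The red points of SSA3 lie to the right of the blue ones and those of SBA1 to the left, while the red circles and red triangles of HSP30, SSE2, STI1 and HSP42 lie on opposite sides of 0.

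The signs moved with the hybridization day. In replicate pairs 1 and 2, both of day 1, 19 and 22 of the 30 units were higher in V81G, and in pairs 3 and 4, both of day 2, 8 and 7 were. Over all probe sets the shares higher in V81G were 49.6, 45.8, 48.1 and 51.3% in pairs 1 to 4. With 1 probe set per gene, as the units have, 53.9% of genes were lower in V81G on day 1 and 59.6% on day 2. The gene medians were -0.04 and -0.11. The units' median differences in the 4 pairs were 0.03, 0.12, -0.25 and -0.40, against -0.0037, -0.05, -0.02 and 0.02 over all probe sets.

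A fit with 4 cells, each group on each day with 2 arrays, gave the differences by day. On day 1, 5 units rose (SSA3, SSA4, SSE2, FES1 and HSP30) and SBA1 fell, with 10% of all probe sets called higher and 7.94% lower (11.3% and 11.2% of genes). On day 2, only SSA3 rose and 10 units fell (SSE1, SSE2, STI1, AHA1, SBA1, CDC37, HSP26, HSP42, HSP104 and HSP30), with 9.67% of all probe sets higher and 11.5% lower (8.54% and 16.6% of genes). After quantile normalization 7 rose on day 1, with SIS1 (0.75) and AHA1 (0.74) added. In that setting 3 rose on day 2, with SSA4 (0.49) and FES1 (0.51) added, and 7 fell, with AHA1, HSP42 and HSP104 no longer called. Without V81G 3, V81G 4 or WT 4 the day 2 count of 11 units dropped to 7, 6 and 7. With each array left out in turn, SSA3, SSE2, STI1, SBA1, HSP26 and HSP30 kept their day 2 call throughout, and SSE1, AHA1, CDC37, HSP42 and HSP104 lost theirs without at least V81G 3 or V81G 4. On day 1, SSA3, SSA4, FES1 and HSP30 kept theirs, and SSE2 and SBA1 lost theirs without V81G 2 or WT 1.

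Within the V81G group, 14 units were lower on day 2 than on day 1 and ZUO1 was higher. Of all probe sets, 7.34% were lower and 6.82% higher in the same comparison (10.3% and 6.01% of genes). Within the WT group, BTN2 was lower and HSP30 higher on day 2, with 0.0431% and 0.765% of all probe sets called lower and higher. The median day 2 minus day 1 difference of the 30 units was -0.51 in V81G and 0.01 in WT. It was -0.02 in both groups over all probe sets, and -0.05 and 0.02 over genes. These contrasts share arrays with the differences on each day, so they are not separate evidence. Without V81G 2, 3 or 4 the count of 15 units called in V81G dropped to 8, 7 and 8, and without WT 2 or WT 4 neither WT call was kept. SSE2, SIS1, STI1, HSP26, HSP42, BTN2 and HSP30 kept their call in V81G without each array in turn, and the other 8 units, ZUO1 among them, lost theirs without at least 1 V81G array.

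The test of the difference between days is the day 2 group difference minus the day 1 group difference. It was called for 3 of 30 units, HSP30, SSE2 and HSP26, all of them more negative on day 2. Of all probe sets, 1.09% were called in that direction and 0.173% in the other (1.59% and 0.265% of genes). At an unadjusted p under 0.05 there were 15 units, a count for which no share of all probe sets is given here. The sign was negative for 26 of 30 units, against 45.1% of all probe sets and 55.7% of genes. A positive difference on day 1 and a negative one on day 2 was seen for 12 units (40%, against 13.3% of all probe sets and 17.7% of genes), and the reverse order for 0. With the fluidics station as a term, limma called none of the 30 and 3 of all probe sets, with 4 of the 30 at an unadjusted p under 0.05. That term rests on WT 3 against WT 4 alone, and the part of the station in the day pattern was not tested further.

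**Figure D2:**
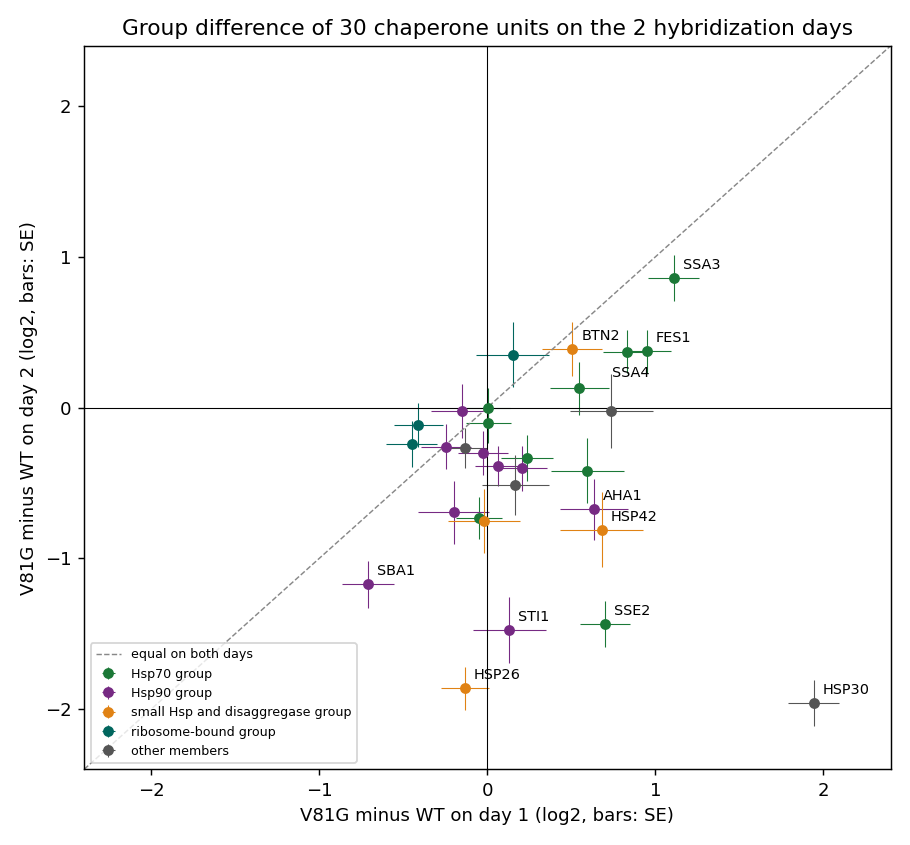
V81G minus WT on day 1 (horizontal) against day 2 (vertical) for the 30 units, in log2 with standard errors from the 4-cell fit. The dashed line marks equal differences. SSA3 and SBA1 lie near it, at 1.11 and 0.86 and at -0.71 and -1.17, while HSP30 lies at 1.94 and -1.96.

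Among the Hsp70s, the constitutive SSA1 and SSA2 gave little room for a difference. SSA1 stood at 15.42 or 15.43 on all 8 arrays, at the top of the scale, where differences are compressed. SSA2 ranged from 15.23 to 15.43. A probe set that names both genes and stood lower, at 14.36 ± 0.16 in V81G and 14.70 ± 0.12 in WT, differed by -0.34 ± 0.13 and was not called (limma adjusted p = 0.105).

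The inducible SSA4 (YER103W) read 13.23, 13.19, 12.37 and 12.61 in V81G replicates 1 to 4 and 12.38, 12.38, 12.10 and 12.14 in WT replicates 1 to 4. The day 1 V81G arrays stood above all others, and 1 of the day 2 V81G arrays lay within the WT range. It rose by 0.83 ± 0.14 on day 1 (adjusted p = 0.0051), and its day 2 difference of 0.37 ± 0.14 was not called. SSA3 rose on both days, by 1.11 ± 0.15 and 0.86 ± 0.15.

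Nucleotide exchange factors make Hsp70 let go of its client. FES1 (YBR101C), which encodes one of them, read 13.73, 13.91, 12.90 and 13.01 in V81G and 12.94, 12.79, 12.59 and 12.57 in WT. It rose by 0.95 ± 0.14 on day 1 (adjusted p = 0.0030), and its day 2 difference of 0.37 ± 0.14 was not called.

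SSE1 and SSE2 encode a pair of Hsp110 proteins, which also serve as exchange factors. SSE2 (YBR169C), the stress-inducible one, read 12.05, 12.16, 9.86 and 10.09 in V81G and 11.34, 11.47, 11.34 and 11.48 in WT. The WT arrays barely differed, while the V81G arrays lay above all of them on day 1 and below all of them on day 2. The difference of 0.70 ± 0.15 on day 1 and -1.44 ± 0.15 on day 2 left -0.37 ± 0.50 over both. The change between days was -2.14 ± 0.21 (adjusted p = 0.0064), the 16th lowest of the 9275. SSE1 (YPL106C) read 12.47, 12.60, 12.39 and 12.38 in V81G and 12.60, 12.57, 13.03 and 13.20 in WT. Here the WT arrays stood apart on day 2, when SSE1 fell by 0.74 ± 0.14 (adjusted p = 0.0075).

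J-proteins hand clients to Hsp70. SIS1 (YNL007C), an essential one, read 13.76, 13.90, 12.63 and 11.96 in V81G and 13.31, 13.16, 12.67 and 12.76 in WT. In V81G it fell between day 1 and day 2, with a difference of -1.54 ± 0.21 (adjusted p = 0.0041), and its group difference was called on neither day (0.60 and -0.42). After quantile normalization SIS1 rose on day 1 (0.75, limma adjusted p = 0.044). APJ1, another J-protein gene, likewise was lower on day 2 in V81G (-0.83 ± 0.18, adjusted p = 0.018), with group differences of 0.55 and 0.13 that were not called. YDJ1, the most general J-protein of the cytosol, differed by 0.24 on day 1 and -0.33 on day 2, neither called.

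Of the 10 units of the Hsp70 group, 4 rose on day 1 and none fell. On day 2, 1 rose and 2 fell. Of all probe sets, 10% rose and 7.94% fell on day 1, and 9.67% rose and 11.5% fell on day 2. Of genes, 11.3% rose and 11.2% fell on day 1, and 8.54% rose and 16.6% fell on day 2. The group's median difference moved from 0.57 to -0.05 between days, where all probe sets had -0.04 and 0.01, and genes -0.04 and -0.11.

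**Figure D3:**
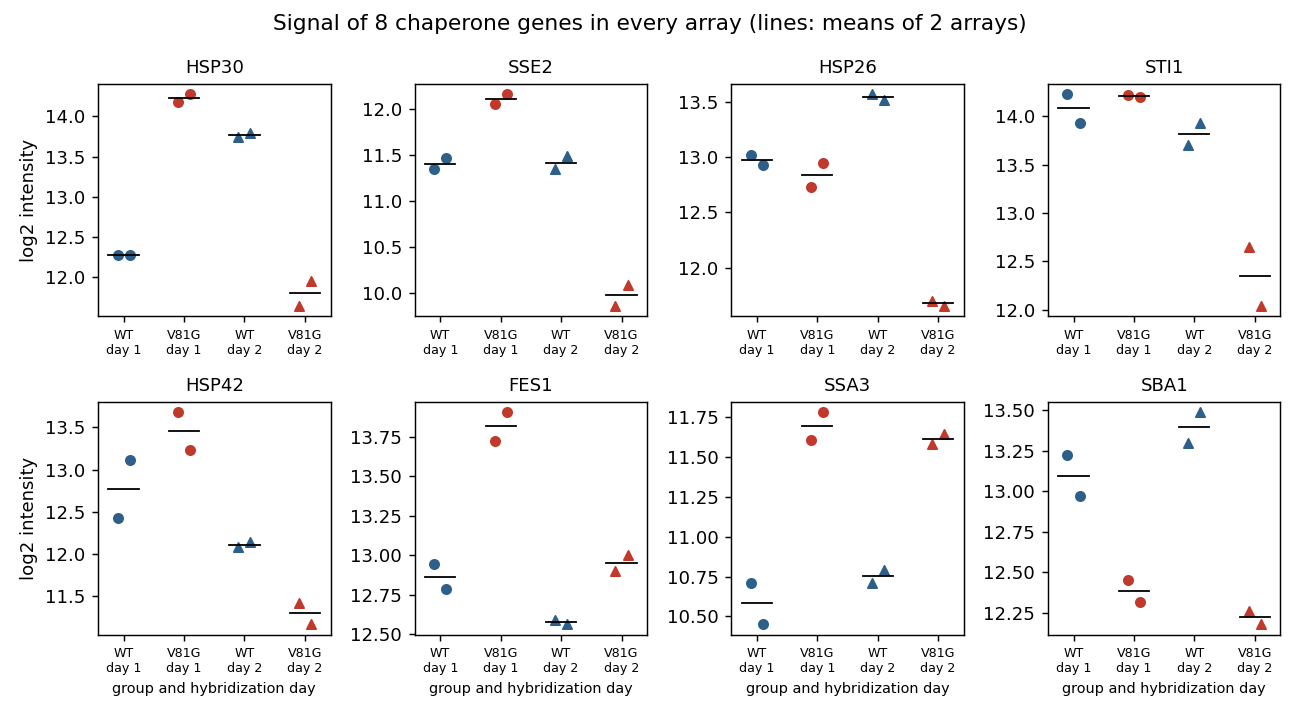
Log2 intensity of 8 genes in every array, by group and hybridization day, with lines at the mean of 2 arrays and a separate vertical scale, not starting at 0, for each gene. SSA3 and SBA1 show the same order of groups on both days. HSP30 and SSE2 change order, and HSP26 and STI1 part from WT on day 2.

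The Hsp90 pair itself moved little. HSP82, the inducible copy, averaged 14.29 ± 0.30 in V81G and 14.45 ± 0.04 in WT, and HSC82, the constitutive copy, 14.53 ± 0.08 and 14.78 ± 0.10. Neither was called over both days (-0.16 ± 0.16 and -0.25 ± 0.11) or on either day. Within V81G, HSP82 was lower on day 2 than on day 1 (-0.51 ± 0.13, adjusted p = 0.038).

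Among the cochaperones, STI1 (YOR027W), which carries clients from Hsp70 to Hsp90, varied most within V81G. It read 14.23, 14.20, 12.65 and 12.04 in V81G and 14.23, 13.93, 13.71 and 13.93 in WT. On day 1 the groups overlapped, and on day 2 both V81G arrays stood below every WT array. STI1 fell by 1.48 ± 0.22 on day 2 (2.78-fold, adjusted p = 0.0024), against 0.13 ± 0.22 on day 1. The change between days, -1.61 ± 0.31, was not called (adjusted p = 0.0507).

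AHA1 (YDR214W) encodes an activator of the Hsp90 ATPase. It read 13.20, 13.38, 12.17 and 12.15 in V81G and 12.92, 12.40, 12.67 and 12.99 in WT. The V81G arrays were above all WT arrays on day 1 and below all of them on day 2. Differences were 0.63 ± 0.20 on day 1, not called, and -0.68 ± 0.20 on day 2 (adjusted p = 0.046). After quantile normalization AHA1 rose on day 1 (0.74, limma adjusted p = 0.022) and was not called on day 2 (-0.53, adjusted p = 0.066). HCH1, the shorter relative of AHA1, differed by -0.03 and -0.30, neither called.

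CDC37, the cochaperone for kinase clients, fell by 0.70 ± 0.21 on day 2 (adjusted p = 0.049) and differed by -0.20 ± 0.21 on day 1. SBA1 fell by 0.71 ± 0.16 on day 1, a call lost without V81G 2 or WT 1 (adjusted p up to 0.0885), and by 1.17 ± 0.16 on day 2, and its change between days was not called (-0.46 ± 0.22, adjusted p = 0.37). The cyclophilin cochaperones CPR6 and CPR7 differed by -0.10 ± 0.18 and -0.09 ± 0.20 over both days and were called on neither. CPR7, at 8.91 ± 0.27 and 8.99 ± 0.34, was the dimmest unit, near the 20th percentile of all probe sets (8.74), where background shrinks differences.

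All 9 units of the Hsp90 group had a negative difference over both days, with a median of -0.16, where 58.8% of all genes were negative. After quantile normalization HSP82, CPR6 and AHA1 turned positive, and 1 of the 9 was called either way. On day 1 the median was -0.03, with 1 fall, and on day 2 it was -0.40, with 4 falls and no rise. Of all probe sets 7.94% fell on day 1 and 11.5% on day 2, and of genes 11.2% and 16.6%.

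In the small heat shock protein and disaggregase group, no unit was called over both days or on day 1. On day 2, 3 of 4 fell, or 1 of 4 after quantile normalization. Of all probe sets 11.5% fell on day 2, and of genes 16.6%. The day 2 calls on HSP42 and HSP104 were also lost without some single arrays. HSP26 (YBR072W), a small heat shock protein, read 12.73, 12.95, 11.70 and 11.66 in V81G and 13.02, 12.93, 13.57 and 13.51 in WT. The groups overlapped on day 1, and on day 2 V81G was lower and WT higher than on day 1. HSP26 fell by 1.86 ± 0.14 on day 2 (3.63-fold, adjusted p = 1.7e-04), against -0.14 ± 0.14 on day 1. The change between days was -1.73 ± 0.20 (adjusted p = 0.0085), the 40th lowest of the 9275. The call on the change between days was lost without V81G 3 (adjusted p = 0.0598) or V81G 4 (0.0577). Over both days the HSP26 difference of -0.998 ± 0.31 was not called (adjusted p = 0.054), and adjusted p ranged from 0.0029 to 0.652 over its alternatives.

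HSP42 (YDR171W), the other small heat shock protein, read 13.68, 13.23, 11.43 and 11.17 in V81G and 12.43, 13.12, 12.08 and 12.14 in WT. It was high in V81G on day 1 and low on day 2. Differences were 0.68 ± 0.25, not called, and -0.81 ± 0.25 (adjusted p = 0.0498). Within V81G the day 2 minus day 1 difference of HSP42 was -2.15 ± 0.25 (adjusted p = 0.0020).

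HSP104, the disaggregase, fell by 0.75 ± 0.21 on day 2 (adjusted p = 0.037) and differed by -0.02 ± 0.21 on day 1. BTN2 (YGR142W), which gathers misfolded proteins into deposits, read 11.56, 12.03, 10.44 and 10.43 in V81G and 11.39, 11.19, 10.05 and 10.05 in WT. It was lower on day 2 in both groups, with day 2 minus day 1 at -1.36 ± 0.18 in V81G and -1.24 ± 0.18 in WT (adjusted p = 0.0034 and 0.027). Its group difference was 0.50 ± 0.18 and 0.39 ± 0.18 on the 2 days, called on neither.

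Of the 3 ribosome-bound units, ZUO1 was called between days within V81G and the others were not. SSB1 and SSB2 encode the Hsp70 that sits at the ribosome exit, and SSZ1 and ZUO1 the complex that stimulates it. ZUO1 (YGR285C) read 12.68, 12.38, 13.19 and 13.14 in V81G and 13.01, 12.95, 13.35 and 13.46 in WT. In V81G it was higher on day 2 by 0.63 ± 0.15 (adjusted p = 0.028), and its group differences of -0.45 and -0.24 were called on neither day.

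The shared probe set of SSB1 and SSB2 read 14.17, 14.19, 14.73 and 14.58 in V81G and 14.60, 14.57, 14.66 and 14.88 in WT, and its difference of -0.26 ± 0.16 was not called. SSZ1 differed by 0.25 ± 0.25, also not called. SSZ1 lies on chromosome VIII, whose 259 genes had a median difference of 0.46 against -0.09 for the 5378 genes of other chromosomes. No unit of this class was called on a day, and all 3 changes between days were positive (0.20 to 0.29) and not called.

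HSP30 (YCR021C) encodes a stress-induced plasma membrane protein that restrains the proton pump Pma1. It gave the lowest change between days of all 9275 probe sets. The V81G arrays read 14.17, 14.27, 11.65 and 11.96 and the WT arrays 12.28, 12.28, 13.74 and 13.79. On day 1 V81G was high and WT low, and on day 2 the order was reversed with no overlap. The difference was 1.94 ± 0.15 on day 1 (3.85-fold, adjusted p = 1.9e-04) and -1.96 ± 0.15 on day 2 (3.89-fold, adjusted p = 1.7e-04), and the change between days was -3.90 ± 0.21 (adjusted p = 4.6e-04). Both groups moved, V81G by -2.42 ± 0.15 and WT by 1.48 ± 0.15, from day 1 to day 2. Over both days the difference was -0.01 ± 0.65.

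HSF1, the transcription factor gene, averaged 11.19 ± 0.35 in V81G and 10.83 ± 0.33 in WT, and was called on neither day (0.74 ± 0.25 and -0.02 ± 0.25). HSP31, of the DJ-1 family, stood near the top of the scale, at 14.99 ± 0.40 and 15.16 ± 0.08, and was not called. The probe sets of CPR1, the cytosolic cyclophilin A, were all lower in V81G, with no overlap of the groups, but only the dimmest was called. The brightest, near the top of the scale at 15.18 ± 0.06 and 15.38 ± 0.06, differed by -0.20 ± 0.11 (adjusted p = 0.252). Another differed by -0.31 ± 0.11 (adjusted p = 0.092), and the dimmest by -0.48 ± 0.12 (adjusted p = 0.0231).

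Paralog pairs were compared within each array, by an exact two-sided permutation of the group labels that takes no account of the day. Its smallest p was 0.0286, so a lone separated pair among the 7 would have an adjusted p of 0.20, and the test could not call it. The values are therefore given as a description. The V81G minus WT difference was -0.38 for SSA4 minus SSA3 (exact p = 0.20) and -0.93 for HSP26 minus HSP42 (exact p = 0.114). SSA1 minus SSA2 sits at the top of the scale. SSE1 minus SSE2 differed by -0.75 on day 1 and 0.70 on day 2, which left -0.02 over both (exact p = 0.914).

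Other genes of these systems were counted from the same fit. Of the 76 genes listed, 73 had a probe set of their own, of which 5 rose and 10 fell over both days. Against these and the counts by list stand 8.96% and 8.59% of all probe sets, and 9.21% and 12.3% of genes. The first list held the CCT ring, the chaperonin that folds actin and tubulin, and prefoldin, which delivers clients to it. It also held PLP2, part of neither complex. All 15 genes were negative, with a median of -0.41 and 5 falls, where 58.8% of all genes were negative. CCT3 fell by 1.08 ± 0.18 (adjusted p = 0.0031) and TCP1 by 0.69 ± 0.13 (adjusted p = 0.0063). All 15 were negative on each day as well, or 14 on day 2 after quantile normalization, with medians of -0.40 and -0.41, and no change between days was called. Of all genes, 53.9% were negative on day 1 and 59.6% on day 2.

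Of 5 further Hsp90 cochaperone genes, PPT1, a protein phosphatase, rose by 0.96 ± 0.23 (adjusted p = 0.0191, and 0.0621 without WT 1). PIH1, of the R2TP complex, rose by 0.60 ± 0.16 (adjusted p = 0.0328). The call on PIH1, which lies on chromosome VIII, was lost without any one of V81G 1, V81G 2, WT 1, WT 2 or WT 3. The other 3 were not called. Of 9 further J-protein genes only CWC23 rose (0.72 ± 0.16). Of 7 nascent chain factors only ARD1, a subunit of an N-terminal acetyltransferase, rose (0.86 ± 0.17), and it also lies on chromosome VIII.

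Of 12 other heat shock genes 3 fell. MGE1, the mitochondrial exchange factor, fell by 0.93 ± 0.15, SSC1, the mitochondrial Hsp70, by 0.82 ± 0.19 (adjusted p = 0.0168, and 0.0514 without WT 4), and HSP10, a mitochondrial chaperonin partner, was the third. HSP78, HSP60 and MDJ1, the other mitochondrial genes of the list, were not called. MGE1 was dim, at 8.37 to 8.85 in V81G. CUR1, a relative of BTN2, read 11.18, 11.10, 9.45 and 9.55 in V81G and 9.39, 9.86, 9.69 and 9.74 in WT, so that it stood high only in the day 1 V81G arrays, and its change between days was called (-1.73 ± 0.25, adjusted p = 0.0195, and up to 0.113 with 1 array left out).

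Of 9 regulators of Hsf1 and Msn2/4, SKN7 rose (0.65 ± 0.16, on chromosome VIII), and BCY1 (-1.10 ± 0.24) and TPK3 (-0.54 ± 0.14), subunits of protein kinase A, fell. The calls on SKN7 and TPK3 were lost without several single arrays. The group difference of TPK2, another subunit, changed between days (-1.28 ± 0.20, adjusted p = 0.0312, and up to 0.157 with 1 array left out).

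The general stress genes, targets of Msn2 and Msn4 such as the trehalose and glycogen enzymes, showed the widest gap between days. None of the 17 was called over both days, with 1 at an unadjusted p under 0.05. On day 1, 3 rose and the median was 0.23, where 10% of all probe sets and 11.3% of genes rose. Only 1 of those 3 calls held without each array in turn. On day 2, 13 fell and the median was -1.39, where 11.5% of all probe sets and 16.6% of genes fell. Within V81G 16 of 17 were lower on day 2, against 7.34% of all probe sets and 10.3% of genes, and the median day 2 minus day 1 difference was -1.70 in V81G and -0.07 in WT. The change between days was called for 8 of them, all negative, against 1.09% of all probe sets and 1.59% of genes. Of those 8 calls, 4 held without each array in turn. TPS1, which makes trehalose phosphate, read 13.25, 13.38, 10.78 and 10.77 in V81G and 12.68, 12.82, 12.58 and 12.78 in WT. The V81G arrays stood above all WT arrays on day 1 and below all of them on day 2, and the change between days was -2.47 ± 0.20 (adjusted p = 0.0037). The group difference of GLK1, a glucokinase gene, changed by -2.53 ± 0.19 (adjusted p = 0.0028). How far these genes and the chaperones move together through day, station or culture was not tested.

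**Figure D4:**
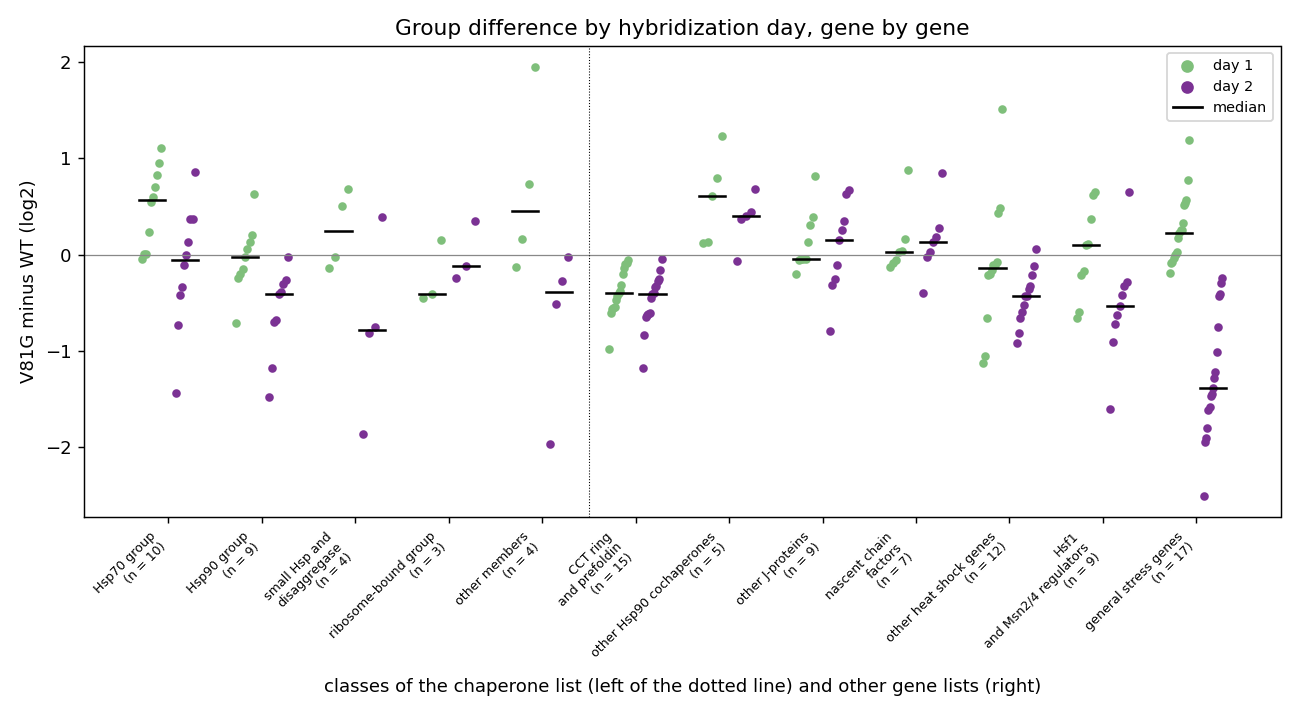
V81G minus WT in log2 for every measured gene, by class of the chaperone list (left of the dotted line) and by other list (right), with day 1 in green, day 2 in purple and lines at the medians. The medians of the Hsp70 group move from 0.57 to -0.05 and those of the general stress genes from 0.23 to -1.39. Those of the CCT and prefoldin list, which includes PLP2, stay at -0.40 and -0.41.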

How the data were processed

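The deposited values are probe-set intensities on a linear scale, from 89.9 to 44207. The submitters' processing notes name RMA, a background correction, normalization and summary of probes, without a version. No source used here says whether scaling followed. Each array is labelled as a biological replicate of its group. Precision is limited by the number of arrays, 4 per group.

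Log2 of the deposited intensity, with no pseudocount, was tested two-sided with lmFit and eBayes of limma 3.58.1, run in R 4.3.3 (Benjamini-Hochberg over 9275 probe sets, 60 controls left out), with group as the only term. A fit of 4 cells (group by hybridization day, from the run sheets) gave differences by day, and was chosen after seeing the data. Symbols came from the platform annotation, updated through the RefSeq gene table (6504 probe sets with 1 symbol, 328 with several, 2443 unnamed). The probe set with the highest mean stood for a gene. The fits were tested on simulated data. Columns of no sample numbered 0.

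Deviations from the group mean in same-numbered arrays of the 2 groups correlated at 0.238, 0.228, 0.436 and 0.258. Arrays of the same day but another number correlated at 0.222 to 0.343. These values do not set pairing by number apart from a shared day. The block fit and the counts of replicate pairs used the numbers as pairs all the same, and the labels state no pairing.

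All members are named. Of the other lists, up to 2 largest called rises and falls were named. HSP10, CUR1, TPK2, GLK1 and TPS1 were added after their values were seen. Members and lists were chosen with earlier results of these data known. Planned promoter and protein comparisons were not run, as sequences were not used here. Alternatives covered scaling, pseudocount (100), dim filters (20th and 40th percentile), intensity trend, block, day, station, chromosome VIII and single arrays.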

Additional observations from a re-analysis of the deposited data

Results flagged for a closer look

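The group difference of 3 units differed between hybridization days by the test of that difference itself. The day 2 difference minus the day 1 difference was -3.90 for HSP30, -2.14 for SSE2 and -1.73 for HSP26, with limma adjusted p-values of 4.6e-04, 0.0064 and 0.0085. With the fluidics station as a term the adjusted p-values were 0.0781, 0.406 and 0.406.

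In 3 of 60 groups of 4 arrays, 1 array lay far from the other 3, where chance flags about 1 in 20. All were WT arrays and the gaps were small. SSA1 read 15.42 in WT 1, at the top of the scale. YDJ1 read 13.83 in WT 2, and CPR1 read 15.29 in WT 2.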

How the results depend on the processing

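Over both days 2 units were called. There were 5 with an intensity trend, 4 with the replicate block, 6 with day as a term, 5 on day 1 alone, 10 on day 2 alone and 10 with day and station as terms, and 2 to 4 with 1 array left out. SBA1 was not called on day 1 alone (adjusted p = 0.0521), and its direction and that of SSA3 held under every alternative run. The 15 called genes of the other lists became 8 on day 1 alone, 29 on day 2 alone and 40 with day and station as terms, and 10 to 15 with 1 array left out. The replicate block changed no other call named here. The difference between days was called for 3 units, for 6 with an intensity trend, for 0 with the station as a term and for 2 or 3 with 1 array left out. Left-out arrays gave 4 to 7 units on day 1, 6 to 10 on day 2, 7 to 16 between days in V81G and 0 to 3 in WT.

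The units whose difference over both days turned sign under an alternative were not called over both days. On day 1 alone the turned values were 0.0059 for SSA2, 0.70 for SSE2, 0.24 for YDJ1, 0.061 for HSP82, 0.13 for STI1, 0.20 for CPR6, 0.63 for AHA1, 0.68 for HSP42, 1.94 for HSP30 and 0.17 for HSP31. On day 2 alone they were -0.42 for SIS1 and -0.023 for HSF1. Quantile normalization gave 0.16 for YDJ1, 0.0071 for HSP82, 0.11 for CPR6, 0.10 for AHA1, 0.063 for HSP42 and 0.17 for HSP30. SSA1 was -0.035 after median-centring, and SIS1 was -0.035 with day and station as terms. The change between days of HSC82 was 0.24 with the station as a term.

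With 1 array left out, group differences that turned sign ranged from -0.00067 to 0.0045 (SSA1), -0.74 to 0.026 (SSE2), -0.18 to 0.063 (YDJ1), -0.19 to 0.46 (SIS1), -0.22 to 0.014 (CPR6), -0.18 to 0.063 (CPR7), -0.24 to 0.17 (AHA1), -0.50 to 0.34 (HSP42), -0.43 to 0.45 (HSP30) and -0.30 to 0.015 (HSP31). Changes between days that did so ranged from -0.014 to 0.0017 (SSA1), -0.10 to 0.077 (HSC82), -0.059 to 0.32 (CPR7), -0.35 to 0.12 (BTN2) and -0.14 to 0.53 (SSZ1). Within-day paralog differences moved to 0.36 and -0.38 for CPR6 minus CPR7 and to 0.66 and -0.37 for AHA1 minus HCH1.

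Why results changed under an alternative was not tested. The 2 arrays per group and day, and the signal ceiling at SSA1, SSA2, CPR1 and HSP31, limit these results.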
